A study of Homo sapiens with 6 samples.

Results

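The 38 genes described here build, fold and clear proteins in the endoplasmic reticulum (ER). They were taken by name from the deposited gene table, which lists 30015 genes, and all 38 were among the 15251 genes tested. By role they comprise 5 stress sensors and transcription factors, 10 chaperones and co-chaperones, 3 members of the lectin chaperone cycle, 8 disulfide enzymes, 2 prolyl isomerases, 8 degradation factors and 2 translocon subunits. The RNA came from HMV-II, a melanoma line of vaginal origin, grown in F10 medium with serum. Stable lines were made with lentivirus and puromycin, carrying either a scrambled control shRNA (Vector, 3 libraries) or an shRNA against EZH2 (shEZH2, 3 libraries), the enzyme that methylates histone H3 at lysine 27 as part of PRC2. The column headings of the table name 1 knockdown construct, so 1 shRNA stands for the knockdown. The labels do not say whether the replicates are separate cultures, so the p-values measure only the spread between these libraries. Whether ER folding genes were higher or lower after EZH2 knockdown was the question addressed.

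Secreted and membrane proteins enter the ER through the translocon and are folded there by HSP70 and HSP90 chaperones, by the calnexin and calreticulin cycle, which reads N-linked glycans, and by enzymes that form and rearrange disulfide bonds. Proteins that fail to fold are returned to the cytosol and degraded (ER-associated degradation, ERAD). The sensors IRE1 (ERN1), PERK (EIF2AK3) and ATF6 detect unfolded proteins and start the unfolded protein response, in which XBP1, ATF6 and ATF4 raise the transcription of chaperones and ERAD genes, while PERK slows translation. Melanocytes and melanoma cells carry a large secretory load, since melanosome proteins pass through the ER.

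After EZH2 knockdown, 8 of the 38 genes were lower and 1 was higher at the threshold of the study, which asks for p under 0.05 before adjustment and a change of more than 0.585 in size on the log2 scale. The lower genes were HSPA5, HYOU1 and DNAJC3 among the chaperones, UGGT1 in the lectin cycle, SEL1L and EDEM1 in degradation, and ATF6 and CREB3L2 among the sensors and factors. CRELD2, a disulfide isomerase of the stress response that was listed with the chaperones, was higher. None of the 8 genes listed as disulfide enzymes passed, and none of the prolyl isomerases or translocon subunits. As a share of the genes tested, 21.1% of the 38 were lower, beside 7.07% of all genes, and 2.63% were higher, beside 7.55% of all genes. With p-values adjusted over all genes (limma, Benjamini-Hochberg), 3 genes were lower at an adjusted p under 0.05, or 7.89%, beside 1.84% of all genes. At that level 0 were higher by limma, beside 2.28% of all genes, while CRELD2 was the 1 gene higher at the unadjusted threshold. After adjustment, DESeq2 called 7 of the 38 lower (18.4%, beside 5.73% of all genes) and 0 higher (beside 5.05%). With TMM factors, edgeR called 3 lower (7.89%, beside 1.97% of all genes) and 0 higher (beside 2.49%). All 3 shEZH2 libraries lay below all 3 Vector libraries in 15 genes (39.5%, beside 16.5% of all genes) and above them in 2 genes (5.26%, beside 18.4% of all genes). The median log2 fold change of the 38 was -0.15, and that of all genes was 0.04.

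Depth ranged from 13400290 to 15923029 counted reads in Vector libraries and from 16129171 to 19128939 in shEZH2 libraries. The targeted gene, EZH2, was lower by limma, at -1.04 on the log2 scale with a standard error (SE) of 0.14 and an adjusted p of 0.0142. In bulk RNA, fewer cells that express a gene and less of its RNA per cell cannot be told apart. All 8 melanocyte lineage markers checked had a mean of at least 10 normalized counts, against 3 of 6 epithelial, 2 of 6 fibroblast, 0 of 5 immune and 1 of 4 endothelial markers. Some of them moved with the knockdown. Of the melanocyte markers, TYRP1 (1.68 on the log2 scale) and MLANA (0.88) were higher and TYR (-0.97) was lower. Without Vector replicate 2, described below, TYRP1 was at 1.64, TYR at -1.22 and MLANA at 0.39, so MLANA fell short of the threshold. The summed counts of the 8 melanocyte markers overlapped, from 75515 to 100744 in Vector and from 78898 to 85355 in shEZH2 libraries. Of the fibroblast markers, LUM (0.74) was higher and COL1A2 (-0.83) lower, and the summed counts of the list ran from 176 to 245 in Vector and from 250.4 to 311 in shEZH2 libraries, with COL1A1, COL3A1, DCN and PDGFRA below a mean of 10. The part of these markers in the results was not tested. Vector replicate 2 stood apart from the other Vector libraries. A chi-square of the counts against sampling noise averaged 119 and 117 per gene for its pairs with Vector replicates 1 and 3, and 2.14 for the pair without it. The pairs of shEZH2 libraries averaged 23.9, 14.3 and 6.49. The departure of Vector replicate 2 followed gene length. In 5 classes of gene length, its median deviation on the log2 scale was -0.49 for the shortest class and 0.37 for the longest. Values without this library are therefore given beside the results it moves, and the plot of log2 fold changes shows them for all 38 genes. In shEZH2 replicate 1 the deviation ran the other way, from 0.24 in the shortest class to -0.20 in the longest.

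Promoters were examined because several of these genes are textbook targets of the unfolded protein response. RefSeq promoter windows on GRCh38.p14, from 250 bases before to 50 bases after the annotated start, were found for 35 of the 38 genes (44 promoters). DERL1, FKBP14 and PDIA3 were not matched. The ER stress element, searched on both strands as CCAAT, 9 free bases and CCACG, is the site through which ATF6 acts with NF-Y. It was present in CALR, CANX, CRELD2, ERO1B, HSP90B1, HSPA5, PDIA6 and XBP1, which is 22.9% of the matched genes, and in 0.0916% of the 27305 genes and 0.0769% of the 35116 promoters of the reference. Its second form (ATTGG, 1 free base, CCACG) was present in HERPUD1, HYOU1 and SDF2L1, or 8.57% of the matched genes, and in 0.0696% of the genes and 0.0541% of the promoters of the reference. Textbook targets of the response are among the 38 genes. Shares above those of the reference therefore come with the choice of genes and are not a result. The HSPA5 promoter is shown first because HSPA5 had the largest fall of the 38 genes. These are the 250 bases before its start, chr9:125241344-125241593 on the minus strand, with the ER stress element at positions -66 to -48 in capitals:
HSPA5: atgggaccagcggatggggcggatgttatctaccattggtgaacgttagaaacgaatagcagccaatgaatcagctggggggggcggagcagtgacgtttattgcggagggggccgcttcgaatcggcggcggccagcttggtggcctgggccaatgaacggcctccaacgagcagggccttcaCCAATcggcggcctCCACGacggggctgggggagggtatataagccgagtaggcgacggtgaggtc

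The same element in other genes, with its CCAAT and CCACG parts (or their complements) in capitals, is shown to set beside it. The windows are those of CRELD2 (chr22:49918539-49918587, plus strand), which rose, and of HSP90B1 (chr12:103930201-103930249, plus strand), PDIA6 (chr2:10812838-10812886, minus strand) and XBP1 (chr22:28800588-28800636, minus strand), which did not pass the threshold:
CRELD2: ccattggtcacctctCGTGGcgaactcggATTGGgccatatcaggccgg
HSP90B1: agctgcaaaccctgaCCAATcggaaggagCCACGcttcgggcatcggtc
PDIA6: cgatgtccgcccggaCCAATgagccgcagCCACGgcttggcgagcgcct
XBP1: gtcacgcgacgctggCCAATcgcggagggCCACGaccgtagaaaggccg

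The second form, in capitals, occurred at 2 places in HYOU1 (chr11:119057365-119057405 and chr11:119057259-119057299, minus strand), which fell, and at 1 in HERPUD1 (chr16:56932010-56932050, plus strand) and SDF2L1 (chr22:21642099-21642139, plus strand), which did not pass:
HYOU1 site 1: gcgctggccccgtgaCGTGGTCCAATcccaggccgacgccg
HYOU1 site 2: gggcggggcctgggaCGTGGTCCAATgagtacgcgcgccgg
HERPUD1: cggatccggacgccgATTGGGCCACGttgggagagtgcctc
SDF2L1: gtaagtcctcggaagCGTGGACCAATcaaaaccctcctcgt

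Of the 11 genes with either form, HSPA5 and HYOU1 fell, CRELD2 rose and 8 did not pass, with log2 fold changes from -0.51 for CANX to 0.30 for PDIA6. The other 6 genes that fell, namely DNAJC3, UGGT1, SEL1L, EDEM1, ATF6 and CREB3L2, held neither form in these windows. The unfolded protein response element bound by XBP1 (TGACGTG) was present in HYOU1, where it overlaps the second-form element at site 1, and in SEC61A1 and TXNDC5, which is 8.57% of the matched genes against 2.4% of genes (1.97% of promoters). The cyclic AMP response element (TGACGTCA) was present in CREB3L2, or 2.86% of the matched genes, against 2.25% of genes (1.85% of promoters). The amino acid response element (TGATGCAA) was present in HERPUD1, or 2.86% of the matched genes, against 1.08% of genes (0.866% of promoters). CCACG alone was present in 25 of the matched genes (71.4%, against 42.1% of genes and 38.1% of promoters) and CCAAT alone in 28 (80%, against 39.7% of genes and 34.6% of promoters), and both counts include the elements above. These matches describe letters in the windows and were not tested as sites. Only exact matches were counted, so any near matches in HSPA5, or in genes said to hold neither form, are not shown.

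**Figure D1:**
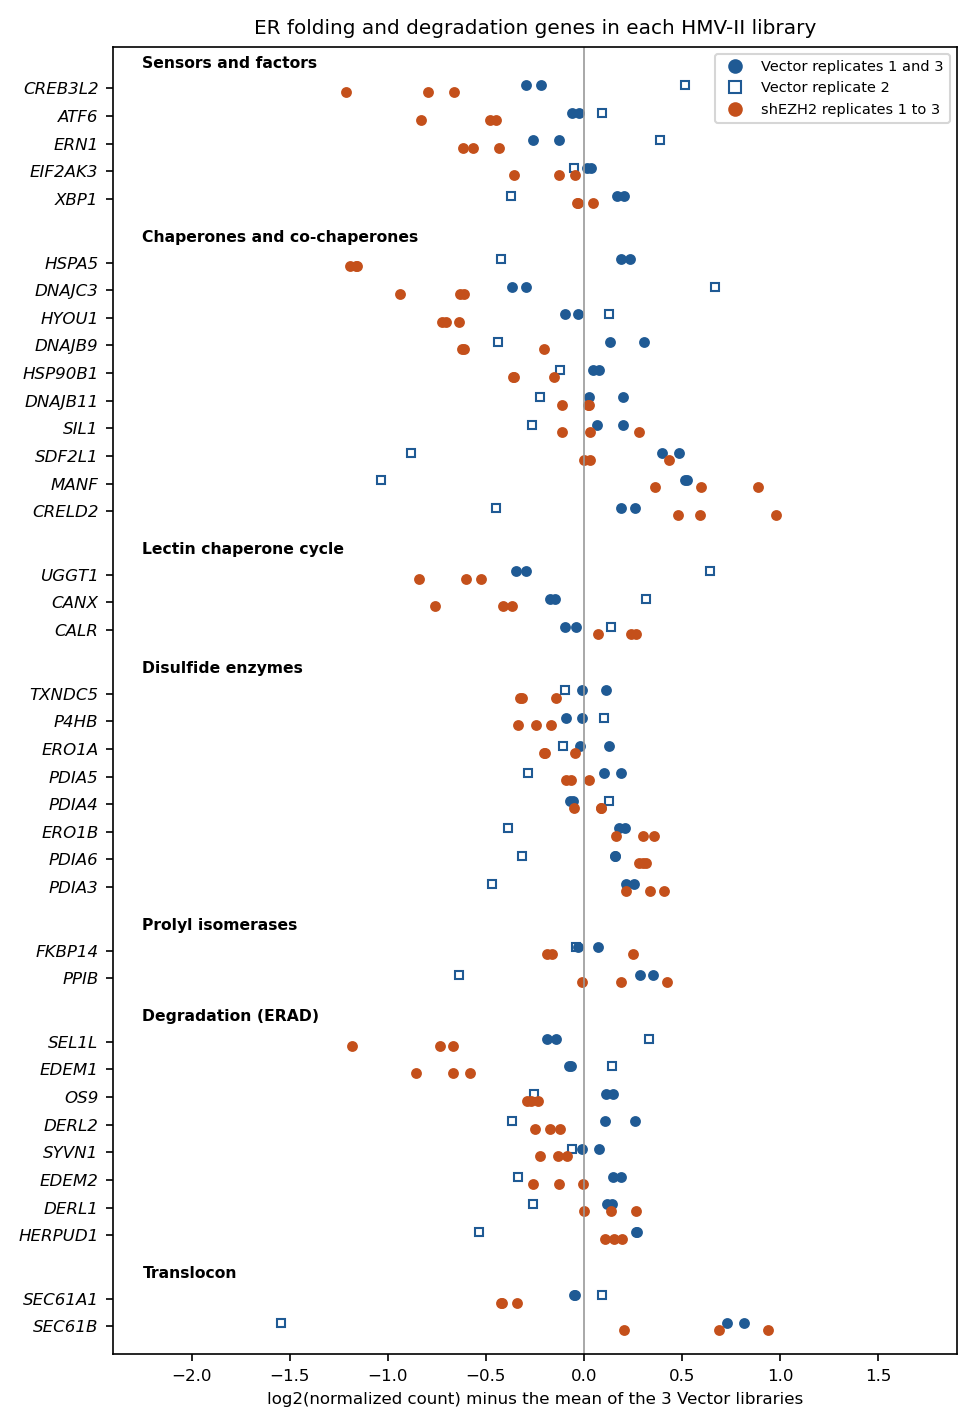
Each row is 1 gene and each point 1 library, placed by its log2 normalized count minus the mean of the 3 Vector libraries of that gene, with genes grouped by role. The shEZH2 points lie left of all Vector points in 15 genes and right of them in 2 genes, and Vector replicate 2 (open squares) is the lowest Vector library in 25 genes and the highest in 13.

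Among the sensors and factors, ATF6 and CREB3L2 were lower and ERN1, EIF2AK3 and XBP1 did not pass. ATF6, the membrane factor that is cut in the Golgi to release an activator of chaperone genes, lies on chromosome 1 from 161766294 to 161964070, plus strand, in GRCh38. It had 2555, 2837 and 2616 normalized counts in Vector replicates 1 to 3, and 1499, 1956 and 1910 in shEZH2 replicates 1 to 3. All shEZH2 libraries were lower than all Vector libraries. Its log2 fold change of -0.586 (SE 0.15, adjusted p = 0.0766) was just past the threshold. The call was lost without Vector replicate 2 (-0.54) and without shEZH2 replicate 1 (-0.46). Without Vector replicate 2 only the fold change fell short, and the adjusted p by limma was 0.00766.

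CREB3L2 encodes a factor of the same family, a membrane-bound activator of secretory pathway genes, and lies on chromosome 7 from 137874979 to 138002067, minus strand. Its counts were 3282, 5756 and 3460 in Vector and 1736, 2323 and 2544 in shEZH2 libraries. Vector replicate 2 was far above the other Vector libraries, and the groups did not overlap. The log2 fold change was -0.89 (SE 0.25, adjusted p = 0.0948), and -0.63 without Vector replicate 2, which still passed the threshold.

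ERN1 (IRE1), the kinase and endonuclease that splices XBP1 mRNA, had 788, 1128 and 719 counts in Vector and 563, 582 and 637 in shEZH2 libraries. The groups did not overlap, but the log2 fold change of -0.54 (95% interval -0.98 to -0.10) was short of the threshold. It passed without Vector replicate 1 (-0.60), without Vector replicate 3 (-0.67) or without shEZH2 replicate 3 (-0.59), and with DESeq2 or edgeR with RLE factors, and was -0.34 without Vector replicate 2. EIF2AK3 (PERK), the kinase that phosphorylates eIF2α, had 394, 371 and 388 counts in Vector and 300, 373 and 352 in shEZH2 libraries. These groups overlapped, with a log2 fold change of -0.18 (95% interval -0.51 to 0.15), or -0.20 without Vector replicate 2. XBP1 had 3417, 2289 and 3332 counts in Vector and 2894, 2907 and 3062 in shEZH2 libraries. Its shEZH2 libraries fell between Vector replicate 2 and the other Vector libraries, and the log2 fold change was -0.01 (95% interval -0.43 to 0.42), or -0.19 without Vector replicate 2. Counts per gene do not separate the spliced form of XBP1 mRNA from the unspliced form. The factors downstream of PERK, ATF4 and DDIT3, are given with the other pathway genes.

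Among the 10 chaperones and co-chaperones, HSPA5, HYOU1 and DNAJC3 were lower and CRELD2 was higher. HSPA5 encodes BiP, the HSP70 of the ER lumen, which also holds the sensors inactive, and lies on chromosome 9 from 125234853 to 125241330, minus strand. It had 44378, 29046 and 45748 normalized counts in Vector and 17056, 17438 and 17394 in shEZH2 libraries. The shEZH2 libraries were nearly equal and lay far below the Vector libraries, of which Vector replicate 2 was the lowest. The log2 fold change was -1.17 (95% interval -1.67 to -0.67, adjusted p = 0.0305), and -1.38 without Vector replicate 2.

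By level per kilobase of gene, HSPA5 was the most abundant of the 38 genes in both groups, at 10165 normalized counts per kb in Vector and 4426 in shEZH2 cells. Among the 15251 genes tested it stood at rank 34 in Vector and rank 97 in shEZH2 cells. It took 0.246% ± 0.0525 (SD, n = 3) of all normalized counts in Vector and 0.112% ± 0.00196 (SD, n = 3) in shEZH2 libraries. The 38 genes together took 0.897% ± 0.0114 in Vector and 0.663% ± 0.0232 in shEZH2 libraries, with ranges of 0.888% to 0.910% and 0.637% to 0.682%. Without HSPA5 the others took 0.651% ± 0.0495 and 0.551% ± 0.0220, so the groups stayed apart, from 0.617% to 0.708% in Vector and from 0.526% to 0.568% in shEZH2 libraries. HSPA5 made up 27.4% ± 5.74 of the counts on the 38 genes in Vector and 16.9% ± 0.475 in shEZH2 libraries.

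The level of HSPA5 was also set against that of 4 partners. The ratio of HSPA5 to HSP90B1, the HSP90 of the ER (GRP94), was 6.80 ± 1.17 per kb in Vector and 3.66 ± 0.272 in shEZH2 libraries (SD, n = 3). HSPA5 to PDIA6, a disulfide isomerase that binds BiP, was 11.4 ± 0.747 and 4.13 ± 0.0190. HSPA5 to DNAJB11, a BiP co-chaperone of the DNAJ family, was 67.7 ± 8.42 and 30.4 ± 1.29. In each of these 3 ratios the groups did not overlap. The groups overlapped in the ratio of HYOU1, the nucleotide exchange partner, to HSPA5, at 0.0409, 0.0730 and 0.0415 in Vector replicates 1 to 3 and from 0.0684 to 0.0718 in shEZH2 libraries, with Vector replicate 2 above every shEZH2 library and the other Vector libraries below them. These ratios are descriptions, with no test.

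HYOU1 encodes an HSP110-like chaperone that exchanges nucleotide on BiP, and lies on chromosome 11 from 119044189 to 119057202, minus strand. It had 3572, 4176 and 3737 counts in Vector and 2310, 2348 and 2459 in shEZH2 libraries. The groups were well apart, with Vector replicate 2 the highest. Its log2 fold change was -0.69 (SE 0.13, adjusted p = 0.0329), and -0.62 without Vector replicate 2. HYOU1 and HSPA5 both fell. Vector replicate 2 was the highest Vector library for HYOU1 and the lowest for HSPA5.

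DNAJC3 encodes P58IPK, a co-chaperone of BiP that also inhibits PERK, and lies on chromosome 13 from 95677139 to 95794989, plus strand. It had 613, 1193 and 582 counts in Vector and 393, 492 and 486 in shEZH2 libraries. The groups did not overlap, but Vector replicate 2 was farther above the other Vector libraries than these were above the shEZH2 libraries. The log2 fold change of -0.73 (SE 0.28, adjusted p = 0.181) became -0.39 without that library, which did not pass. It also failed the threshold without shEZH2 replicate 1 (-0.62), 2 (-0.78) or 3 (-0.77).

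CRELD2, a disulfide isomerase with EGF-like domains that is secreted during ER stress, lies on chromosome 22 from 49918167 to 49927540, plus strand. It had 402, 258 and 423 counts in Vector and 695, 492 and 531 in shEZH2 libraries. The shEZH2 libraries were the higher ones and did not overlap the Vector libraries. Its log2 fold change was 0.68 (SE 0.23, adjusted p = 0.139). The call was lost without Vector replicate 2 (0.46) and without shEZH2 replicate 1 (0.53). Without Vector replicate 2 only the fold change fell short, and the adjusted p by limma was 0.0451. CRELD2 overlaps ALG12 on the other strand, whose mean was 92.1% of that of CRELD2, and reads in the overlap cannot be assigned where the strand setting is unknown.

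The other chaperones did not pass. HSP90B1 had a log2 fold change of -0.29 (-0.35 without Vector replicate 2), without overlap between the groups. The BiP co-chaperone DNAJB9 (ERdj4) was at -0.48 and passed at -0.70 without Vector replicate 2, which had 403 counts where Vector replicates 1 and 3 had 599 and 675. It overlaps PNPLA8 and THAP5 on the other strand, with means of 111% and 121% of its own. DNAJB11, the nucleotide exchange factor SIL1, SDF2L1 and MANF ranged from -0.02 to 0.61 without passing, and from -0.29 to 0.10 without Vector replicate 2. SIL1 overlaps SNHG4 on the other strand, with a mean of 103% of its own. MANF, a secreted stress protein, was at 0.61 with all libraries and 0.10 without Vector replicate 2, which had 204 counts where Vector replicates 1 and 3 had 600 and 596.

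**Figure D2:**
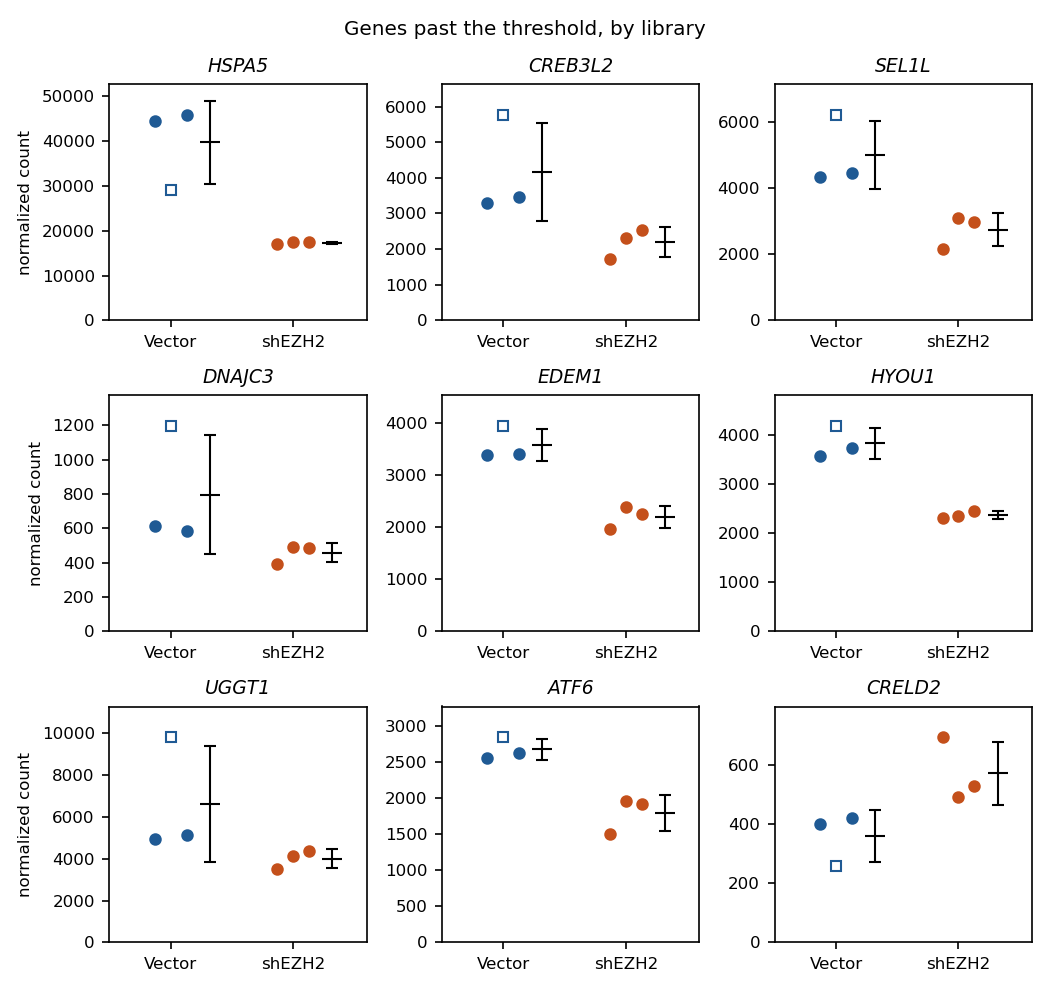
Normalized counts of the 9 genes past the threshold, 1 panel per gene from the lowest log2 fold change to the highest, with 1 point per library and the mean ± SD (n = 3) as a bar beside each group. Vector replicate 2 (open square) is the highest Vector library in 7 of the 8 lower genes and the lowest in HSPA5 and CRELD2.

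In the lectin cycle, UGGT1, which adds a glucose to misfolded glycoproteins so that they bind calnexin again, was lower. It lies on chromosome 2 from 128091200 to 128195677, plus strand, and had 4926, 9789 and 5112 counts in Vector and 3503, 4129 and 4351 in shEZH2 libraries. The groups did not overlap, but Vector replicate 2 was far above every other library. The log2 fold change was -0.66 (SE 0.27, adjusted p = 0.203). It did not pass without Vector replicate 2 (-0.34) or without shEZH2 replicate 1 (-0.56), 2 (-0.68) or 3 (-0.72). Without Vector replicate 2 only the fold change fell short, and the adjusted p by limma was 0.0433. Calnexin (CANX), the membrane lectin, had from 17003 to 23869 counts in Vector and from 11331 to 14848 in shEZH2 libraries, again without overlap. Its log2 fold change was -0.51 (adjusted p = 0.187), short of the threshold, and it passed at -0.60 without Vector replicate 1 and was at -0.35 without Vector replicate 2. Calreticulin (CALR), its lumenal counterpart, had overlapping groups and a log2 fold change of 0.19 (95% interval -0.13 to 0.52), or 0.26 without Vector replicate 2.

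Of the 8 disulfide enzymes, 0 passed the threshold in limma, DESeq2 or edgeR, 0 had an unadjusted p under 0.05 in limma, and their log2 fold changes ranged from -0.26 for TXNDC5 to 0.32 for PDIA3. Over all genes, limma called 7.07% lower and 7.55% higher at the threshold, and 11.3% lower and 11.9% higher at an unadjusted p under 0.05. With only 8 genes, 0 is not far from these shares. The 8 genes were spread about 0, with 4 below and 4 above. They do not include CRELD2, which was listed with the chaperones and rose. P4HB, the archetypal protein disulfide isomerase, was at -0.25 and TXNDC5 at -0.26, both without overlap between the groups, and at -0.20 and -0.31 without Vector replicate 2. PDIA6 was at 0.30, with every shEZH2 library above every Vector library, and at 0.14 without Vector replicate 2. PDIA3 (ERp57), which works with calnexin and calreticulin, was at 0.32, and at 0.09 without that library. The oxidases ERO1A and ERO1B, which pass electrons from PDI to oxygen, were at -0.15 and 0.27, or -0.20 and 0.08 without it. ERO1B overlaps GPR137B on the other strand, with a mean of 299% of its own. The 95% intervals of these 8 genes reached from -0.58 to 0.81, so a change of the size of HYOU1 was outside the interval of each, on the lower side. The prolyl isomerases PPIB (cyclophilin B) and FKBP14 were at 0.20 and -0.04, with overlapping groups, and at -0.12 and -0.06 without Vector replicate 2.

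Among the 8 degradation factors, SEL1L and EDEM1 were lower. SEL1L is the adaptor that brings substrates to the ubiquitin ligase HRD1, and lies on chromosome 14 from 81471549 to 81533861, minus strand. Its counts were 4335, 6208 and 4475 in Vector and 2173, 3113 and 2967 in shEZH2 libraries. All Vector libraries were above all shEZH2 libraries, by more than the range of the shEZH2 group. The log2 fold change was -0.86 (SE 0.21, adjusted p = 0.0648), and -0.70 without Vector replicate 2.

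EDEM1, a mannosidase-like protein that marks misfolded glycoproteins for disposal, lies on chromosome 3 from 5187646 to 5219957, plus strand. It had 3390, 3945 and 3419 counts in Vector and 1973, 2391 and 2251 in shEZH2 libraries. All shEZH2 libraries were well below all Vector libraries. Its log2 fold change was -0.70 (SE 0.14, adjusted p = 0.0395), and -0.63 without Vector replicate 2.

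The ligase itself, SYVN1 (HRD1), did not pass, at -0.15 (95% interval -0.43 to 0.14), or -0.18 without Vector replicate 2. It had 1398, 1348 and 1484 counts in Vector and 1327, 1205 and 1286 in shEZH2 libraries, so its groups did not overlap, with the shEZH2 libraries lower, as in SEL1L. The difference between the changes of both genes was not tested, and the per-kb ratio of SEL1L to SYVN1 was 2.05 ± 0.514 in Vector and 1.25 ± 0.280 in shEZH2 libraries (SD, n = 3). Its gene overlaps FAU and MRPL49, with means of 191% and 80.4% of its own. The lectin OS9, EDEM2, the channel proteins DERL1 and DERL2, and HERPUD1 ranged from -0.27 to 0.15, and none of them passed in limma, DESeq2 or edgeR, or had an unadjusted p under 0.05 in limma. Over all genes, 11.3% were lower and 11.9% higher at that p. Without Vector replicate 2, OS9 was at -0.39, DERL2 at -0.36, EDEM2 at -0.30, DERL1 at 0.00 and HERPUD1 at -0.11. All were still short of the fold change in the threshold. In that limma fit the adjusted p was 0.00869 for OS9 and 0.0455 for DERL2, and above 0.05 for EDEM2, DERL1 and HERPUD1. DERL2 overlaps MIS12 on the other strand, with a mean of 69.0% of its own.

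Of the translocon subunits, SEC61A1, the channel, was at -0.39 (adjusted p = 0.129), or -0.35 without Vector replicate 2, with from 5686 to 6278 counts in Vector and from 4394 to 4640 in shEZH2 libraries and no overlap. It overlaps RUVBL1 on the other strand, with a mean of 45.2% of its own. SEC61B, a small accessory subunit, was at 0.60 (95% interval -0.78 to 1.99). That value rests on Vector replicate 2, which had 76.8 counts where Vector replicates 1 and 3 had 371 and 395, and was -0.16 without it.

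**Figure D3:**
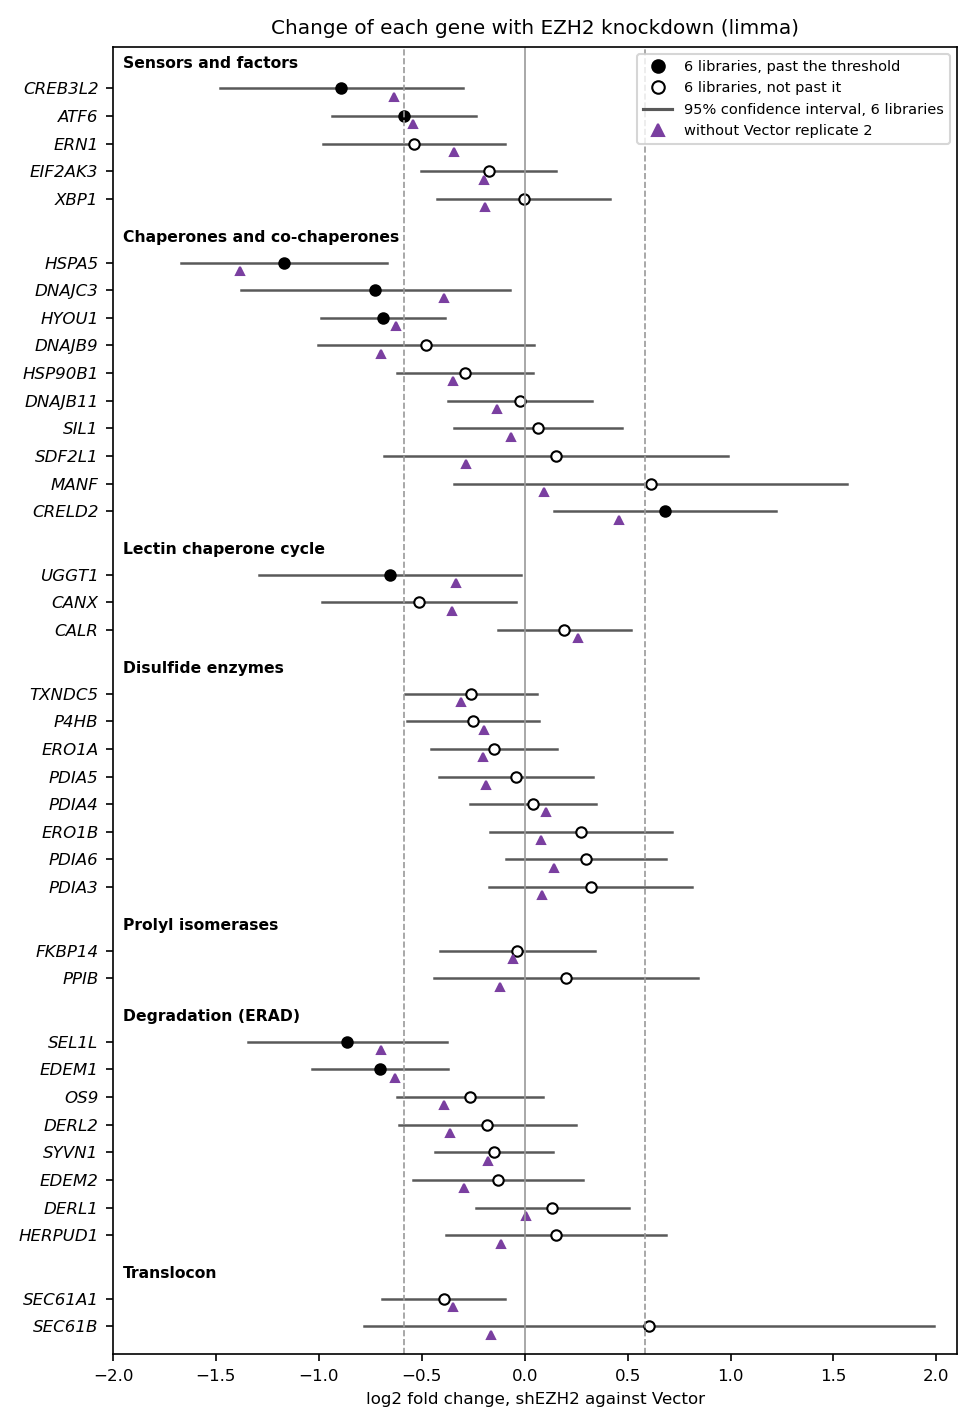
Log2 fold change of shEZH2 against Vector for the 38 genes by role, with 95% confidence intervals from limma as lines and the threshold as dashed lines. The 9 filled points passed the threshold, and the triangles, computed without Vector replicate 2, pass it in 6 genes on the lower side and 0 on the higher side.

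Each of the 9 genes past the threshold had separate groups, as had 97.3% of the 1078 genes called lower among all. An exact two-sided permutation test of each of these genes by itself, with 20 arrangements, gave p = 0.1, the smallest that 3 libraries against 3 allow. Separate groups always give this value, so the test adds nothing to the calls. HSPA5, HYOU1, SEL1L and EDEM1 passed the threshold in all 17 other fits, and CREB3L2 in 16 of them. The adjusted p of HSPA5 ran from 2.79e-09 to 0.173 over those fits, that of HYOU1 from 2.40e-06 to 0.183, and that of EDEM1 from 2.61e-06 to 0.204. It was above 0.05 in all 3 genes when any 1 library other than Vector replicate 2 was left out.

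The genes that fell were long. Their median gene length was 7792 bases, against 4696 bases for the other members, 4622 for all genes tested and 6509.5 for the 1078 genes that were lower among all. Vector replicate 2 was the highest Vector library in 7 of the 8 and the lowest in HSPA5, which at 3908 bases was the shortest of them, while it was the lowest in 24 of the other 30 members. Among the 1078 genes that were lower among all, it was the highest in 824 and the lowest in 172. Over the 15251 genes tested, it was the highest in 6695 and the lowest in 7132. Across the 38 genes, its deviation from Vector replicates 1 and 3 ran from -2.30 in SEC61B (1190 bases) to 1.00 in DNAJC3. In shEZH2 replicate 1 the counts were the lowest of the shEZH2 group in 8 of the 8 genes that fell and in 13 of the other 30. They were also the lowest in 651 of the 1078 genes that were lower among all, and in 6382 of the 15251 tested. The part of these 2 libraries in the results was not tested. Without Vector replicate 2, 6 members were lower (15.8%, beside 5.64% of all genes) and 0 higher (beside 7.05%) at the threshold in limma, and the median of the 38 was -0.20. At an adjusted p under 0.05 in that fit, 13 were lower (34.2%, beside 9.07% of all genes) and 1 was higher (2.63%, beside 9.78%). The 6 were HSPA5, HYOU1, SEL1L, EDEM1, CREB3L2 and DNAJB9, all among the 13. The rest of the 13 were ATF6, CANX, DERL2, HSP90B1, OS9, SEC61A1 and UGGT1, and the 1 higher gene was CRELD2. The Vector group of that fit was replicates 1 and 3, the closest pair within a group by chi-square (2.14). Its adjusted p-values also rest on how close these 2 libraries were. With the length trend removed from each library, HSPA5 was at -1.28, HYOU1 at -0.59, SEL1L at -0.71, EDEM1 at -0.65, CREB3L2 at -0.76 and DNAJC3 at -0.73, all past the threshold, while ATF6 (-0.48) and UGGT1 (-0.46) did not pass.

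**Figure D4:**
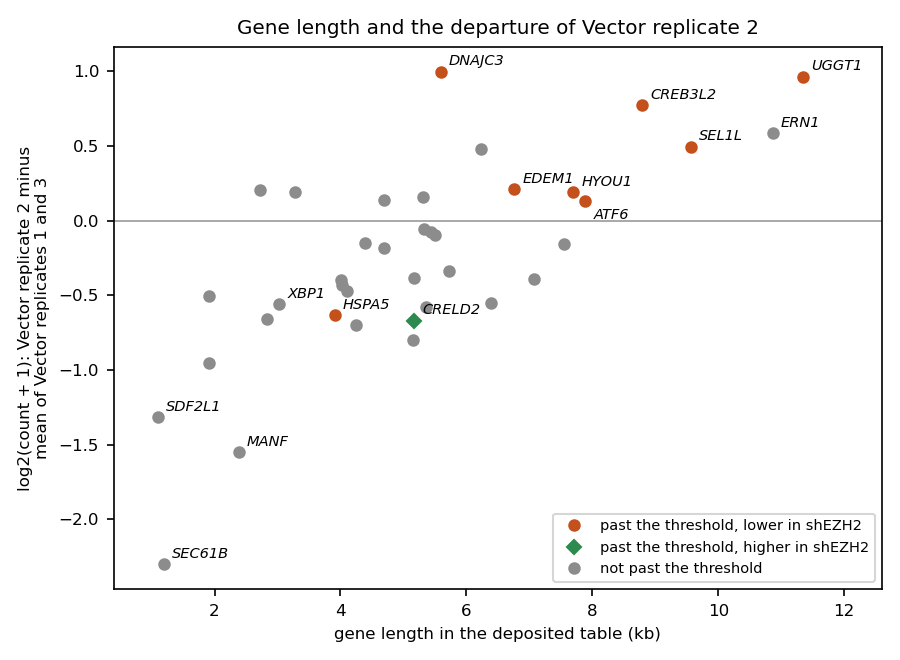
Gene length of each of the 38 genes in kb against the log2 deviation of Vector replicate 2 from the mean of Vector replicates 1 and 3. Of the 8 genes that fell, 7 lie above 0 at more than 5 kb, and HSPA5 lies below 0 at 3908 bases.

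Beyond the 38 genes, 128 further genes of the pathway were listed from their textbook roles, and 117 of them were tested. At the threshold 5 were lower and 1 was higher (4.27% and 0.855%, beside 7.07% and 7.55% of all genes). Without Vector replicate 2, 4 were lower and 1 higher (3.42% and 0.855%, beside 5.64% and 7.05% of all genes). At an adjusted p under 0.05, limma gave 3 lower (2.56%, beside 1.84% of all genes) and 0 higher (beside 2.28%). With TMM factors, edgeR likewise gave 3 lower (2.56%, beside 1.97% of all genes) and 0 higher (beside 2.49%). DESeq2 gave 8 lower (6.84%, beside 5.73% of all genes) and 2 higher (1.71%, beside 5.05%). With an unadjusted p under 0.05 and no minimum fold change, limma gave 12 lower (10.3%, beside 11.3% of all genes) and 5 higher (4.27%, beside 11.9%). Their median log2 fold change was 0.09, or -0.08 without Vector replicate 2.

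Among 15 other chaperones and lectins, 2 were lower (13.3%, beside 7.07% of all genes) and 0 higher (beside 7.55%). They were DNAJB14, an ER membrane co-chaperone (-0.66, adjusted p = 0.0831), and UGGT2, the paralog of UGGT1 (-0.65, adjusted p = 0.0665). Neither passed without Vector replicate 2, at -0.58 and -0.54. Of 19 other disulfide and prolyl isomerase enzymes, TMX4, a membrane thioredoxin, was lower and FKBP7, a prolyl isomerase of the lumen, higher. Each is 5.26% of the 19, beside 7.07% lower and 7.55% higher of all genes. TMX4 had 2422, 3173 and 2355 counts in Vector and 1301, 1590 and 1608 in shEZH2 libraries, without overlap. Its log2 fold change was -0.81 (adjusted p = 0.0434), and -0.68 without Vector replicate 2. FKBP7 was at 0.73 (adjusted p = 0.131), and 0.51 without that library, which did not pass.

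Of 35 translocation, signal peptidase and N-glycosylation genes, SEC63 and SPCS3 were lower (5.71%, beside 7.07% of all genes) and 0 were higher (beside 7.55%) in limma. At an unadjusted p under 0.05, 6 were lower (17.1%, beside 11.3% of all genes) and 2 higher (5.71%, beside 11.9%). SEC63, a translocon partner that recruits BiP, had 1593, 1980 and 1785 counts in Vector and 871, 1108 and 983 in shEZH2 libraries. The groups were well apart, with a log2 fold change of -0.86 (SE 0.15, adjusted p = 0.0276), and -0.78 without Vector replicate 2. SPCS3, a signal peptidase subunit, had 1237, 1234 and 1241 counts in Vector and 720, 830 and 781 in shEZH2 libraries. Its Vector libraries were nearly equal, Vector replicate 2 included, and the log2 fold change was -0.67 (SE 0.12, adjusted p = 0.0305), or -0.68 without Vector replicate 2. Without that library, 3 of the 35 were lower (8.57%, beside 5.64% of all genes) and 1 higher (2.86%, beside 7.05%). SEC11A went from -0.48 to -0.86 (adjusted p by limma = 7.35e-05) and GANAB from 0.54 to 0.59 (adjusted p by limma = 0.000679).

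Of 29 other degradation genes, 0 passed in either direction in limma, DESeq2 or edgeR, with limma values from -0.30 to 0.72. At an unadjusted p under 0.05 in limma, 1 was higher (3.45%, beside 11.9% of all genes) and 0 lower (beside 11.3%). Of 19 other stress sensors and effectors, 0 passed in any of these tools, with limma values from -0.45 to 0.83. At an unadjusted p under 0.05 in limma, 2 were lower (10.5%, beside 11.3% of all genes) and 0 higher (beside 11.9%). ATF4, the factor translated when PERK is active, had 13197, 6121 and 12819 counts in Vector and 15618, 14275 and 14929 in shEZH2 libraries. It did not pass (0.56, adjusted p = 0.298), and was at 0.20 without Vector replicate 2 and past the threshold at 0.75 without Vector replicate 1. DDIT3 (CHOP), a target of ATF4, had 3983, 898 and 3947 counts in Vector and 3692, 3105 and 3119 in shEZH2 libraries. The shEZH2 libraries lay between Vector replicate 2 and the others, and the value of 0.45 became -0.27 without that library. PPP1R15A, which reverses the phosphorylation of eIF2α, was at -0.16, and TRIB3, a pseudokinase induced with CHOP, at 0.33, and neither passed. They were at -0.38 and 0.11 without Vector replicate 2.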

How the data were processed

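RNA-seq of 3 Vector and 3 shEZH2 HMV-II libraries was analysed, with groups and replicate numbers from the sample titles. The labels describe poly-T selected mRNA sequenced on the Illumina NovaSeq, and counting of reads by featureCounts v1.5.0-p3. The deposited signal values are read counts that the authors divided by 1 size factor per library (DESeq2 1.20.0). Dividing each library by its smallest value gave whole reads for 100% of the values (within 0.001 reads). All 6 library columns were used and 0 left out. The authors' log2 fold changes, p-values and adjusted p-values were not used. The aligner and strand setting are not given in the sources used here. The processing notes name hg19, but 47.0% of 15276 coding genes share an end with RefSeq genes of GRCh38, so the coordinates were read as GRCh38.

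For the comparison, limma 3.58.1 (lmFit, eBayes with trend, no block) was run on log2(normalized count + 1) of 15251 genes, those averaging 10 or more normalized counts, with Benjamini-Hochberg adjustment over all of them. Fold changes are on that scale. Calls used the threshold of the study (p under 0.05, log2 fold change above 0.585 in size). The fit was run on simulated data with 15251 genes, 200 of them changed. There it found 97% of the changed genes by the threshold and 91.5% by adjusted p. The adjusted p also called 9 unchanged genes. The share of changed genes that the fit finds in the measured libraries, where Vector replicate 2 stood apart, was not tested. Alternatives were DESeq2 1.42.0 and edgeR 4.0.16 (TMM, RLE) on the recovered reads, TMM scaling, array weights, removal of a gene length trend, pseudocounts of 0.1 and 5, other minimum means, a replicate block, a log2 threshold of 1 and each library left out. The 38 genes, the lists and the tests were chosen with earlier results of these data known. Genes past the threshold and the sensors are given in every library. Of the other pathway lists, up to 2 genes per direction past the threshold with a mean of at least 50 are named, as are ATF4, DDIT3, PPP1R15A and TRIB3. SEC11A and GANAB are named because they passed without Vector replicate 2. Protein sequences were not used here. R 4.3.3, Python 3.11.15, pandas 2.3.3, SciPy 1.17.1 and matplotlib 3.10.9 were used.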

Additional observations from a re-analysis of the deposited data

How the results depend on the processing

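Over 17 alternative fits, the 9 called genes kept their direction, and 4 of them (HSPA5, HYOU1, SEL1L, EDEM1) passed the threshold in every one. Among the 29 uncalled genes, 11 changed sign under at least 1 alternative, and ERN1, DNAJB9 and CANX passed under at least 1. The count of 8 lower and 1 higher genes became 5 and 0 with array weights and, by a stricter rule, 1 and 0 at a log2 threshold of 1. With each library left out it ran from 5 to 10 lower and from 0 to 1 higher, with 5 lower and 0 higher without shEZH2 replicate 1 and 0 higher without Vector replicate 2. The 3 lower and 0 higher genes after adjustment became 7 lower with DESeq2, 7 lower with the length trend removed, 21 lower and 2 higher with array weights, and 0 lower with no minimum mean, where 30015 genes were tested. With each library left out, it ran from 0 to 13 lower and from 0 to 1 higher. The replicate block left 8 lower and 1 higher genes at the threshold and 0 after adjustment. For array weights, the length trend, the minimum means, the block and the other left-out libraries, the share of all genes called was not computed. The counts in those fits therefore cannot be set beside such a share. The numbers were not treated as pairing the libraries, because deviations from the group means correlated at 0.28, 0.22 and -0.11 between same-numbered libraries, and shEZH2 replicate 3 correlated best with Vector replicate 2 (0.14). Among the other pathway genes, 5 lower and 1 higher became 3 and 0 with the length trend removed, 0 and 0 at a log2 threshold of 1, and 2 higher with array weights, and with each library left out ran from 3 to 7 lower and from 0 to 8 higher (8 without Vector replicate 1, 4 without Vector replicate 3, 0 without shEZH2 replicate 2, and 3 lower without shEZH2 replicate 1). The causes of these changes were not tested. The median of all genes lay between -0.02 and 0.05 over the alternatives. Protein sequence tails, planned at the start, were not run.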
